A study of Mus musculus with 49 samples.

Results

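Car1, Car2, Ermap, Rhag, Rhd, Aqp1 and Tfrc, carbonic anhydrases and membrane proteins known from the red cell lineage, were followed through RNA sequencing of sorted mouse blood progenitors and MLL-AF9 leukaemias. These 7 genes were taken by name, as the rows of the deposited FPKM table (fragments scaled to transcript length and library size) whose Ensembl identifier carries these symbols, and they are 7 of its 38253 rows. There were 30 normal samples in 6 groups and 19 leukaemias in 4 groups, all labelled as wild type C57BL/6J mice aged 6 to 12 weeks. The stem cell gates gave 5 long-term (LT-HSC) and 5 short-term (ST-HSC) haematopoietic stem cell samples and 6 of multipotent progenitors (MPP). Below them were 5 samples of the common myeloid progenitor (CMP), 5 of its granulocyte-macrophage descendant (GMP) and 4 of its megakaryocyte-erythrocyte descendant (MEP). Leukaemias were started by a retrovirus carrying the MLL-AF9 (MA9) fusion and GFP in ST-HSC (STHSC:MA9, n = 3), MPP (MPP:MA9, n = 6), CMP (CMP:MA9, n = 4) or GMP (GMP:MA9, n = 6), and grew in sublethally irradiated recipients. Normal cells were sorted from marrow depleted of cells with lineage markers, among them the red cell marker Ter-119, and in every gate that the methods spell out (that of MEP is not) had to carry c-Kit, whereas leukaemia cells were sorted for GFP alone. The labels call every sample bone marrow, while the methods of the study describe leukaemia cells taken from the spleen, so that the fusion, the tissue, the transplantation and the sort cannot be told apart in any comparison of a leukaemia with its normal cell.

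Red cells carry carbon dioxide mainly as bicarbonate, which the cytosolic carbonic anhydrases make from carbon dioxide and water. Their membrane holds the Rh complex, whose core is formed by Rhag and the Rh blood group protein, the water channel Aqp1 and other blood group proteins such as Ermap. Erythroid precursors take up iron for haem through the transferrin receptor, encoded by Tfrc, which other dividing cells use as well.

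In the mm9 build (NCBIM37 assembly), Car1 and Car2 lie on chromosome 3, Car1 on the minus strand at 14766217 to 14778459 and Car2 on the plus strand at 14886426 to 14900769, with 107967 bases between them. Chromosome 4 holds Ermap (118848062 to 118862616, minus strand) and Rhd (134420451 to 134452087, plus strand). Aqp1 is on chromosome 6 (55286426 to 55298549, plus strand), Tfrc on chromosome 16 (32609006 to 32632880, plus strand) and Rhag on chromosome 17 (40948075 to 40977703, plus strand). All 7 are annotated as protein coding, and none overlaps another annotated gene. Windows shared with other genes were counted on their merged exons. Of the 31-base windows of the Car1 exons, 21.9% also occur in Gm5843, which was listed at or below 0.46 FPKM in every sample. For the other 6 genes the shared part was at most 2.27%.

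Promoter windows from 250 bases before to 50 bases after the start site were found for 5 of the 7 genes in the RefSeq table for GRCm38.p6, an assembly other than that of the expression values. They are shown for the membrane genes because Ermap, Rhag, Rhd and Aqp1 moved together across the normal groups while Tfrc did not. Capitals mark matches, on either strand, to the GATA core (AGATAA and AGATAG, with the first letter A or T) or to CCNCNCCC, the form of site known for Klf1. Ermap is at chr4:119189946-119190245 (minus strand), Rhag at chr17:40810899-40811198, Rhd at chr4:134864286-134864585, Aqp1 at chr6:55336049-55336348 and the first of the Tfrc windows at chr16:32608646-32608945 (all plus strand).
Ermap: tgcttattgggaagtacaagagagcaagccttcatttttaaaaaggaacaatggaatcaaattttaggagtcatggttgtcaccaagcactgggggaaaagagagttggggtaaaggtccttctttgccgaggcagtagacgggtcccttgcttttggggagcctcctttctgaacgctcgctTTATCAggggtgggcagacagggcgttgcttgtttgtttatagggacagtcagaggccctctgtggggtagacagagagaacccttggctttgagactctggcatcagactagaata
Rhag: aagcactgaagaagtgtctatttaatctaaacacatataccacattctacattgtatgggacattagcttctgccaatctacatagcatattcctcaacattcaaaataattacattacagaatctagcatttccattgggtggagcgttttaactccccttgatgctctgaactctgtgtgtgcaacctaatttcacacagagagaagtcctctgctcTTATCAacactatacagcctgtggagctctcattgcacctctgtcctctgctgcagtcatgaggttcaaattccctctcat
Rhd: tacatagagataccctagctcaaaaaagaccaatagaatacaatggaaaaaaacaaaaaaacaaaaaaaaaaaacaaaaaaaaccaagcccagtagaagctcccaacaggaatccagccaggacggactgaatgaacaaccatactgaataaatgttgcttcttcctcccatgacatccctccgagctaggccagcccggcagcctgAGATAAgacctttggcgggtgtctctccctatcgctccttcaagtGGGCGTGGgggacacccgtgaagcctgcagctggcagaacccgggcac
Aqp1: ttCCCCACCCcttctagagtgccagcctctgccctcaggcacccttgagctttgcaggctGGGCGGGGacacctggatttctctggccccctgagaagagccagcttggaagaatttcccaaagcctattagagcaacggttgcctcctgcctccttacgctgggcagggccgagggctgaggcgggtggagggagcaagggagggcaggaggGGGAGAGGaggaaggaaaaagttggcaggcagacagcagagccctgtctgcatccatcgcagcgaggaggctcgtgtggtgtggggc
Tfrc: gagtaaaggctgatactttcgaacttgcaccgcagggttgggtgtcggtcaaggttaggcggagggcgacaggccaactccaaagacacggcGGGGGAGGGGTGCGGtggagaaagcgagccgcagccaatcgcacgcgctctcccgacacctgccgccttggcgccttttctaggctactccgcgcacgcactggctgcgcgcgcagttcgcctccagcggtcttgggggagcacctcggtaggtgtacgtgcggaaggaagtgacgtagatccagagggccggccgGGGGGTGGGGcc
The windows of Ermap, Rhag and Rhd each hold 1 GATA core, starting 67, 31 and 43 bases before the start site. Those of Aqp1 and Tfrc hold none, and 29.8% of all 32851 promoter windows hold at least 1. Matches to CCNCNCCC number 3 in the Aqp1 window, 1 in the Rhd window and 5, partly overlapping, in the Tfrc window, and 49.5% of all windows have such a match. These matches describe letters in the windows and were not tied to binding of any factor.

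The samples held between 15282 and 17852 genes above 0, and their depth relative to the median sample, read from the steps of low FPKM values, ran from 0.5 to 1.54. The study gives only a lower bound for the reads per sample. The total of each sample is unknown, so that no counting interval was attached to any value. Defining genes followed the labels in the progenitor gates: Cd34 averaged 2.19 ± 1.92 FPKM (SD, n = 4) in MEP against 137 ± 42.6 (n = 5) in CMP, and Mpo, a granule enzyme gene, reached 12761 ± 1465 (n = 5) in GMP. In leukaemias Kit was close to absent, with group means of 0.853 to 2.98 FPKM against 57.2 to 110.0 in the normal groups. Among the stem cells 4 libraries stood apart: replicates 4 and 5 of LT-HSC and of ST-HSC held from 8485 to 70577 FPKM summed over 8 granulocyte markers, where the other 6 held 21 to 1162. The same 4 libraries carried from 7092 to 79895 FPKM over 9 haemoglobin and late red cell genes, against 158 to 6556 in the others, the highest of which was ST-HSC replicate 2. Results that rest on them are given without them too, where a call or order of the 7 genes changed or a list count moved by over 1.5 times.

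All 7 genes had their highest group mean in MEP, and 6 of them, Tfrc being the exception, followed 1 order of group means among the normal cells: MEP, LT-HSC, CMP, ST-HSC, MPP and GMP. The means thus went down and up again along the labelled hierarchy, from a high value in LT-HSC through a trough in MPP to CMP and MEP, with GMP at the bottom. Without LT-HSC and ST-HSC replicates 4 and 5 the order held for Car1, Car2, Ermap and Aqp1, but the LT-HSC means of Rhag (14.6 ± 6.16 FPKM, n = 3) and Rhd (10.1 ± 2.51) were then below CMP (19.4 and 16.8), and the ST-HSC mean of Rhd (1.88) was no longer above MPP (1.89). Car1 was the most abundant, at a mean of 2818 ± 202 FPKM (SD, n = 4) in MEP. Car2 followed at 1462 ± 130, Ermap at 213 ± 16.5, Aqp1 at 210.0 ± 21.4, Tfrc at 114 ± 23.0, Rhag at 60.5 ± 9.96 and Rhd at 51.9 ± 10.8 FPKM. FPKM is per length, so that these levels may be set beside each other. In these bulk samples a smaller number of expressing cells and less RNA in each cell cannot be told apart.

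**Figure D1:**
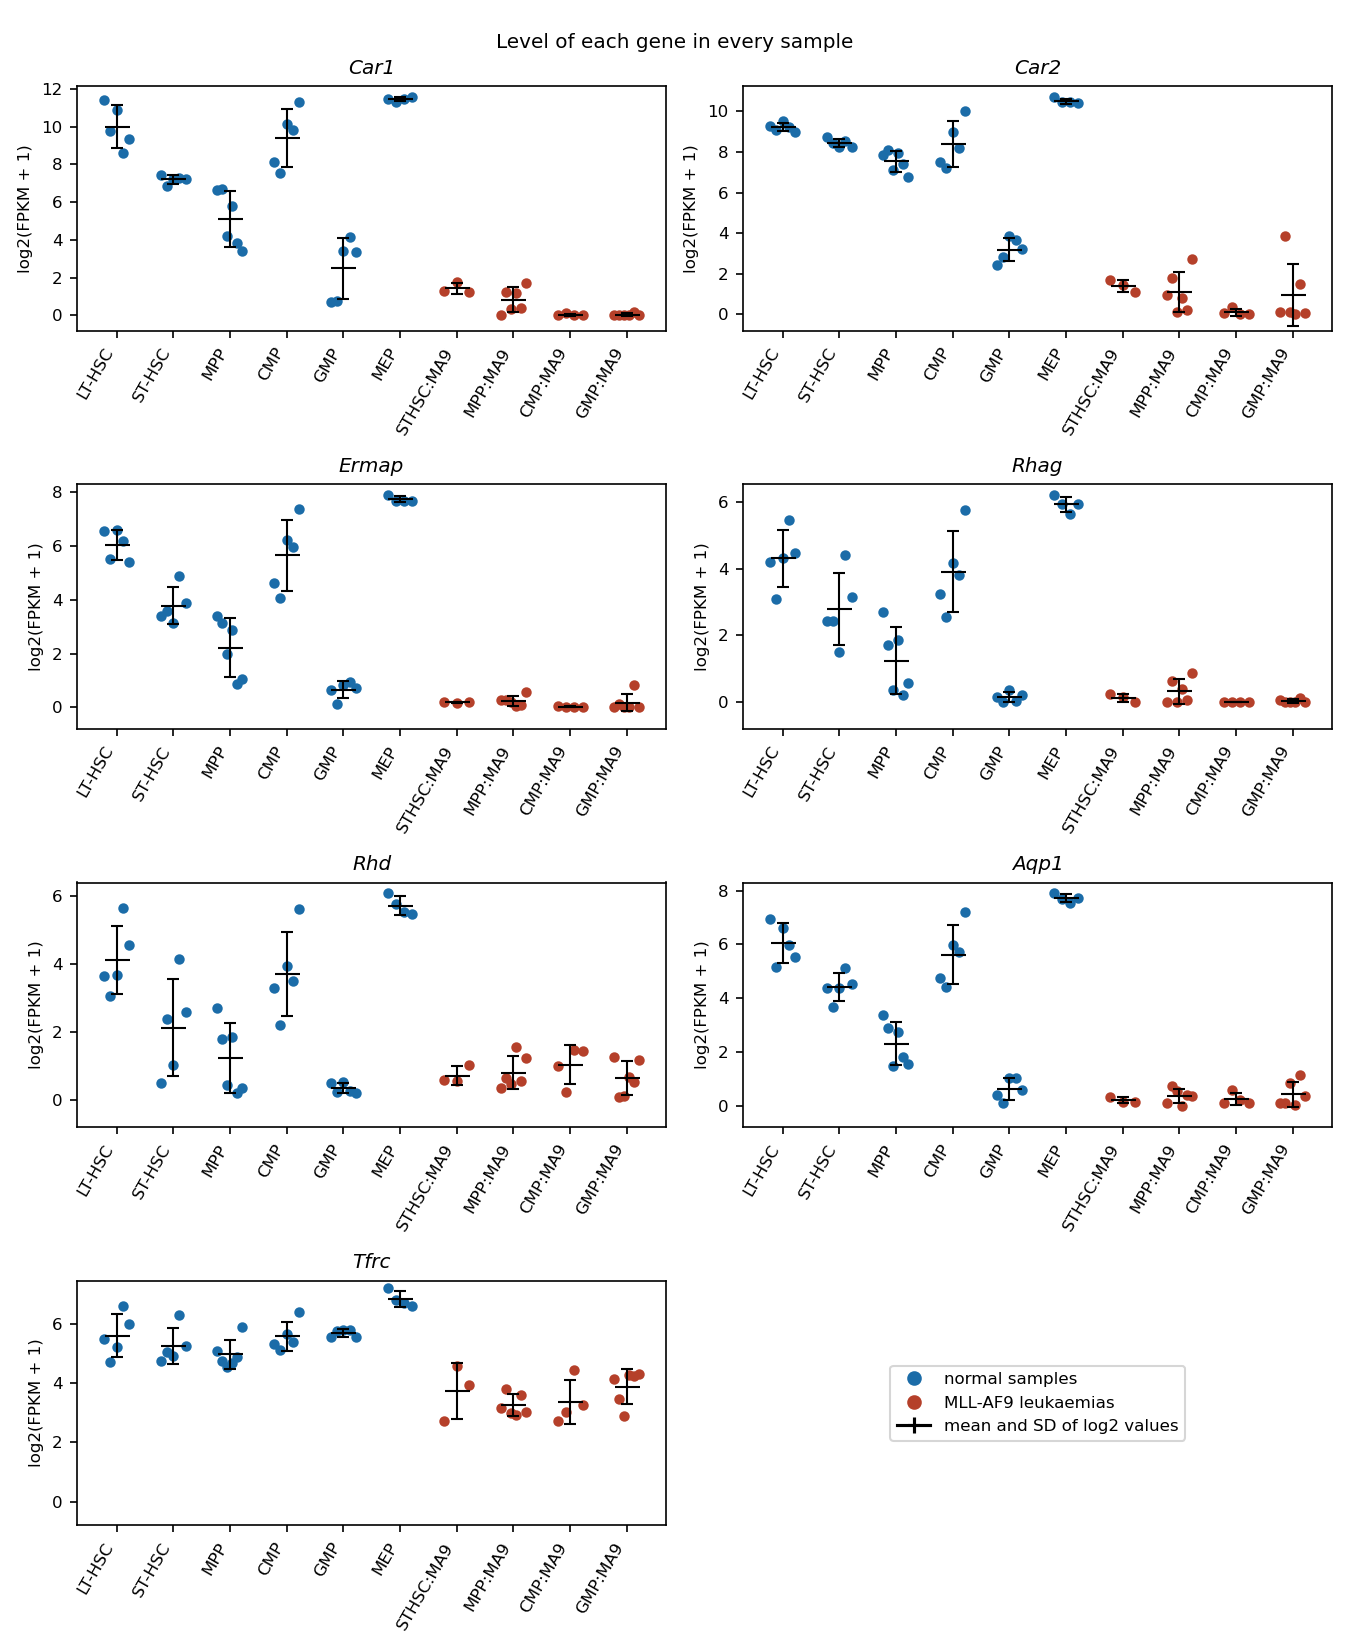
Level of each gene as log2(FPKM + 1) in each of the 49 samples (points), by group, with the mean and SD of the log2 values in black. Apart from Tfrc, the normal groups trace a high LT-HSC level, a low MPP level and a peak in MEP, and the leukaemias lie at or below 2.48 FPKM except for Car2 in GMP:MA9 replicate 2 (13.5 FPKM) and MPP:MA9 replicate 6 (5.59 FPKM).

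The order of levels was not sharp at every step. For Car1 the MEP samples (2557 to 3048 FPKM) overlapped LT-HSC (395 to 2679), which overlapped CMP (184 to 2541). The lowest CMP sample lay just above the highest ST-HSC sample (173), and the lowest ST-HSC sample (113) just above the highest MPP sample (103). For Car2 the MEP samples (1354 to 1651) cleared LT-HSC (513 to 745), LT-HSC and CMP overlapped, and MPP (108 to 276) lay far above GMP (4.35 to 13.3). The 4 MEP samples were above all 26 other normal samples for Car2, Ermap, Aqp1 and Tfrc, 4 of the 7 genes, against 3.61% of the 12367 genes tested. Car1 missed this through LT-HSC replicate 1, Rhag through CMP replicate 5, and Rhd through CMP replicate 5 and LT-HSC replicate 4.

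The step from CMP to MEP asks how far these genes mark the erythroid branch. All 7 rose in MEP, where 2.34% of all genes tested rose. A gene was called when limma gave an adjusted p below 0.05 and a change above 1 on the scale of log2(FPKM + 1), which understates the change of low genes. The changes were alike in size, from 2.01 for Rhd to 2.13 for Car2, apart from 1.26 ± 0.32 (SE) for Tfrc (adjusted p = 0.00296). Car2 was the firmest (2.13 ± 0.37, adjusted p = 5.99e-05) and Car1 the least firm (2.06 ± 0.76, adjusted p = 0.0396). The Car1 call was lost without CMP replicate 1 or 2 or any MEP replicate (adjusted p from 0.0653 to 0.13), with a pseudocount of 0.1 (0.0641) and with no filter on low values (0.0808). That of Rhd was lost without CMP replicate 2 (adjusted p = 0.0588) and with that pseudocount (0.0613).

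The CMP samples themselves covered a wide range, and they did so in the same way for every gene. Car1 stood at 281, 184, 1126, 918 and 2541 FPKM in CMP replicates 1 to 5. Car2 stood at 183, 147, 502, 294 and 1029, and Ermap at 23.6, 15.8, 73.6, 62.2 and 167. Replicate 5 was highest and replicate 2 lowest, and the order of the 5 samples was identical in all 7 genes. Aqp1 ran from 20.2 to 146 FPKM, Rhag from 4.84 to 53.7, Rhd from 3.54 to 47.2 and Tfrc from 33.5 to 81.8. The highest sample was thus 13.8-fold above the lowest for Car1 and 6.99-fold for Car2, while among MEP samples Car1 varied by 1.19-fold.

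Other genes moved with this spread. Summed over 11 erythroid regulators the CMP samples held 634, 583, 746, 683 and 967 FPKM in replicate order, the same ranking. Over 5 granulocyte-macrophage progenitor markers, Mpo and Elane among them, they held 5051, 5923, 2499, 2701 and 1533 FPKM, the reverse ranking. Haemoglobin and late red cell genes did not follow it, at 1539, 965, 278, 227 and 588 FPKM, so that the sample richest in the 7 genes was not the richest in late red cell RNA. The 9 megakaryocyte markers summed to between 208 and 312 FPKM in CMP and between 36.5 and 66.8 in MEP. The part of these differences in the spread was not tested.

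**Figure D2:**
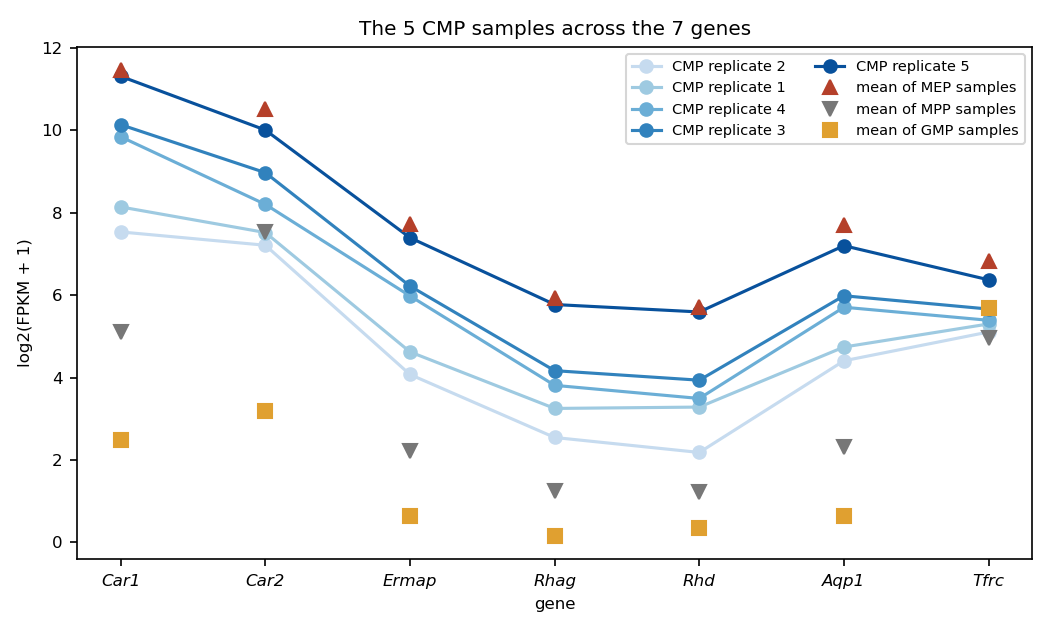
Level of the 7 genes, as log2(FPKM + 1), in each CMP sample (lines, darker for higher), with the mean of the log2 values in MEP, MPP and GMP as separate symbols. The 5 lines never cross, and replicate 5 comes close to the MEP mean for Car1, Rhag and Rhd.

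Against GMP, the other progenitor below CMP, the contrast was the largest in the normal set. In MEP all 7 genes were above GMP, where 9.33% of genes rose, by 8.97 ± 0.76 (SE) for Car1, 7.32 ± 0.37 for Car2, 7.09 ± 0.52 for Ermap and 7.08 ± 0.45 for Aqp1 on the log2 scale. Rhag (5.77 ± 0.55) and Rhd (5.36 ± 0.63) followed, and Tfrc differed by 1.14 ± 0.32 (adjusted p = 0.00388). From CMP to GMP 6 of the 7 fell, where 7.94% of genes fell, with changes from -6.90 ± 0.72 for Car1 to -3.35 ± 0.59 for Rhd. Tfrc differed by 0.12 ± 0.30 (adjusted p = 0.793), with GMP samples at 45.5 to 54.6 FPKM inside the CMP range. These calls held without any 1 of the replicates.

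GMP did not lack the carbonic anhydrases altogether. Car1 was at 0.65, 0.70, 9.57, 17.1 and 9.47 FPKM in GMP replicates 1 to 5, and Car2 at 4.35, 6.04, 13.3, 11.6 and 8.46. The membrane genes were lower, with Ermap at 0.08 to 0.90 FPKM, Aqp1 at 0.07 to 1.06, Rhd at 0.16 to 0.43 and Rhag at 0 to 0.30. Replicate 3 or 4 was the highest in all 7 genes.

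The first steps of the hierarchy ask where the stem cell level is lost. From LT-HSC to ST-HSC 4 of the 7 genes fell, where 0.768% of all genes fell: Car1 (-2.79 ± 0.72, SE, adjusted p = 0.0129), Ermap (-2.27 ± 0.49, 0.00337), Rhd (-1.98 ± 0.59, 0.0322) and Aqp1 (-1.63 ± 0.42, 0.0128). Rhag differed by -1.52 ± 0.52 (adjusted p = 0.0644), Car2 by -0.80 ± 0.35 (0.164) and Tfrc by -0.35 ± 0.30 (0.529). Car1 stood at 2679, 858, 1896, 395 and 640.3 FPKM in LT-HSC and at 173, 113, 148, 156 and 151 in ST-HSC, without overlap. Car2 did not overlap either, at 513 to 745 against 298 to 420.0 FPKM.

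Within LT-HSC the genes split. Rhag was highest in replicate 4, then 5 (17.5, 7.54, 18.8, 43.4 and 21.3 FPKM in replicates 1 to 5), as were Rhd (11.4, 7.24, 11.8, 48.2 and 22.6) and Tfrc (44.0, 25.0, 36.3, 94.3 and 62.3). Car1, by contrast, was lowest in replicate 4, then 5. In ST-HSC replicate 4 was the highest in Ermap, Rhag, Rhd, Aqp1 and Tfrc, and replicate 1 in Car1 and Car2. Rhd ranged there from 0.41 to 16.5 FPKM, with 5.01 in replicate 5.

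Replicates 4 and 5 are the libraries richest in haemoglobin and granulocyte RNA, and the part of that RNA in the levels was not tested. Over the 9 haemoglobin and late red cell genes, LT-HSC replicates 1 to 5 held 1524, 177, 497, 79895 and 42237 FPKM, and ST-HSC 288, 6556, 158, 43123 and 7092. With LT-HSC and ST-HSC replicates 4 and 5 left out, ST-HSC replicate 2 (6556 FPKM) stayed in. The same 4 genes were then still called lower in ST-HSC, Car1 (-3.51 ± 0.94, adjusted p = 0.0169), Ermap (-2.85 ± 0.63, 0.00435), Rhd (-2.15 ± 0.63, 0.0269) and Aqp1 (-2.10 ± 0.55, 0.0152). Singly, leaving out LT-HSC replicate 4 or 5 or ST-HSC replicate 1 or 3 lost the Rhd call (adjusted p from 0.0672 to 0.11), as did a pseudocount of 0.1 (0.0565) and no filter (0.0621), and leaving out LT-HSC replicate 2 or ST-HSC replicate 4 made Rhag a call (0.0295 and 0.0125). A fit of these groups alone lost Rhd (0.233) and Aqp1 (0.0773).

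**Figure D3:**
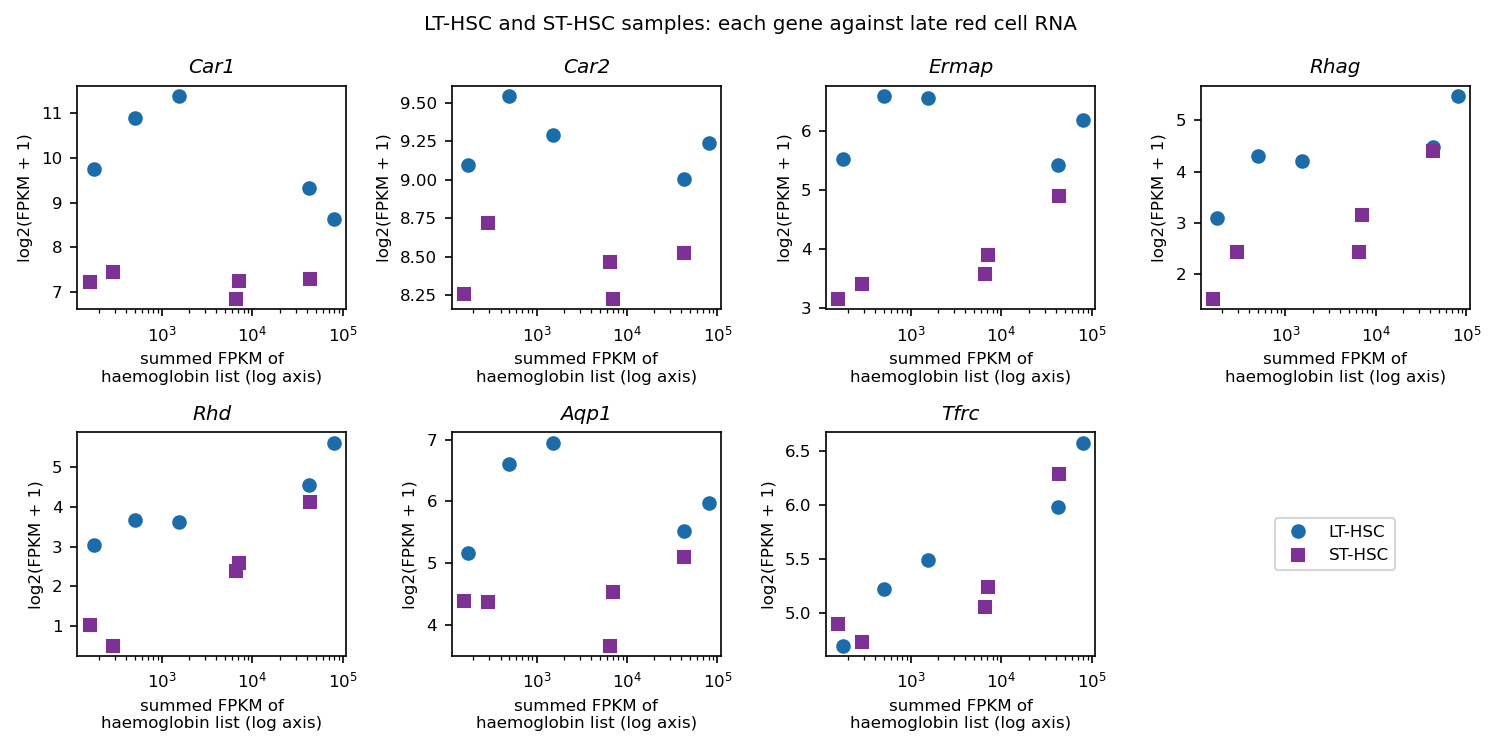
Level of each gene as log2(FPKM + 1) against the summed FPKM of 9 haemoglobin and late red cell genes (log axis) in the 5 LT-HSC (circles) and 5 ST-HSC (squares) samples. Rhag, Rhd and Tfrc are highest in the LT-HSC sample with most haemoglobin RNA (79895 FPKM), where Car1 is at its LT-HSC minimum.

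From ST-HSC to MPP 4 genes fell, where 1.31% of genes fell, and this step was the least firm. Aqp1 fell by 2.11 ± 0.40 (SE, adjusted p = 0.000539), from 11.7 to 33.4 FPKM to 1.75 to 9.35 with no overlap. Car1 (-2.10 ± 0.69, adjusted p = 0.0321), Ermap (-1.56 ± 0.47, 0.0195) and Rhag (-1.54 ± 0.50, 0.0293) were called as well. Without LT-HSC and ST-HSC replicates 4 and 5 the calls of Car1 (adjusted p = 0.0692), Ermap (0.128) and Rhag (0.22) were lost and Aqp1 was left (-1.83 ± 0.48, 0.00751). Leaving out only ST-HSC replicate 4, or MPP replicate 5 or 6, also left Aqp1 alone.

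Car1 lay at 99.9, 103, 17.6, 54.9, 13.3 and 9.75 FPKM in MPP replicates 1 to 6, and Ermap at 9.56, 7.85, 2.99, 6.33, 0.82 and 1.07. Replicates 1, 2 and 4 were the 3 highest in every gene but Tfrc, whose highest MPP sample was replicate 6 (57.4 FPKM). From MPP to CMP 5 of the 7 rose, where 1.49% of genes rose: Car1 by 4.29 ± 0.69, Ermap by 3.44 ± 0.47, Aqp1 by 3.30 ± 0.40, Rhag by 2.67 ± 0.50 and Rhd by 2.48 ± 0.57 (SE). Car2 (0.84 ± 0.33, adjusted p = 0.0893) was called only without CMP replicate 1 (1.06, 0.0394) or 2 (1.14, 0.0175), and Tfrc differed by 0.61 ± 0.29 (0.159). Car1, Ermap, Rhd and Aqp1 were both lower in ST-HSC than LT-HSC and higher in CMP than MPP, 4 of 7 against 0.453% of all genes.

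The 2 carbonic anhydrase genes, though close neighbours, were not in a fixed proportion. Car1 exceeded Car2 in all 5 CMP samples (1.25 to 3.13 times) and all 4 MEP samples (1.71 to 2.25 times), and in 4 of 5 LT-HSC samples (0.656 to 4.29 times). In every ST-HSC and MPP sample Car2 was the higher, with Car1 at 0.32 to 0.507 of it in ST-HSC and 0.0778 to 0.432 in MPP. Over the 30 normal samples each gene was the higher in 15. Car2 thus kept 195 ± 66.3 FPKM (SD, n = 6) in MPP, where Car1 was at 49.8 ± 43.3. These ratios are given as a description, without a test.

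**Figure D4:**
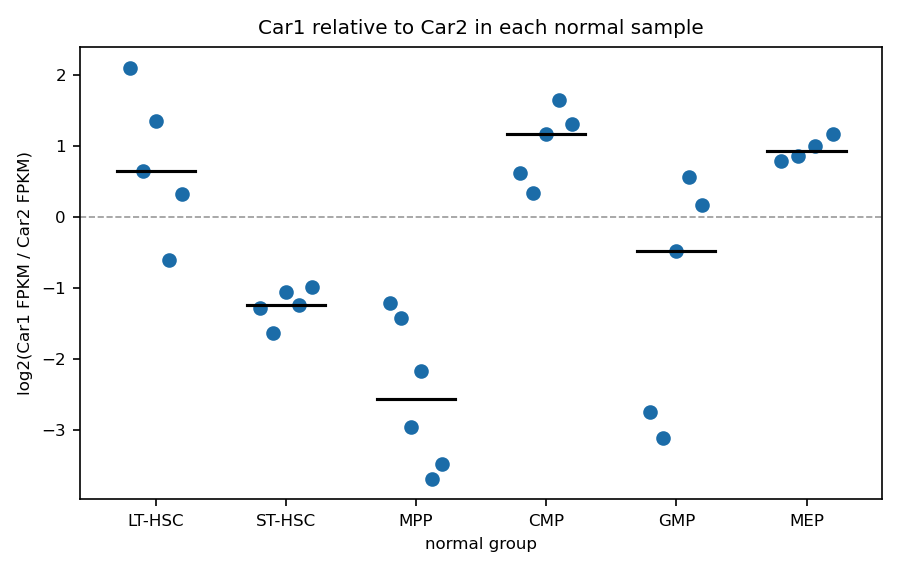
Log2 of the ratio of Car1 to Car2 FPKM in each normal sample (points), with the median of each group (bar) and equal levels as a dashed line. All ST-HSC and MPP samples lie below the line and all CMP and MEP samples above it.

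The Rh genes ran closer together. Rhag was 1.10 to 1.39 times Rhd in MEP, 0.975 to 1.37 times in CMP and 0.90 to 1.60 times in LT-HSC. In ST-HSC the ratio reached 10.7 in replicate 1, where Rhd was 0.41 and Rhag 4.40 FPKM. Rhag was the higher in 20 of 30 normal samples. In GMP and the leukaemias the order was the other: Rhd exceeded Rhag in 4 of 5 GMP samples and in all 19 leukaemias, in which it never passed 1.96 FPKM. In MPP, with samples down to 0.15 FPKM for Rhag and 0.14 for Rhd, Rhag was the higher in 4 of 6.

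In the leukaemias the genes other than Tfrc were low. Car1 ranged from 0 to 2.44 FPKM over the 19 samples, with 9 listed at 0, Ermap from 0 to 0.76, Aqp1 from 0 to 1.18 and Rhag from 0 to 0.83, with 11 listed at 0. Car2 ranged from 0 to 13.5 FPKM, and its 2 highest samples were GMP:MA9 replicate 2 (13.5), level with the highest normal GMP sample (13.3), and MPP:MA9 replicate 6 (5.59). Tfrc was present in all 19, at 5.50 to 22.8 FPKM. The sum over 8 granulocyte markers was 18527 to 45880 FPKM in STHSC:MA9, 998 to 51725 in MPP:MA9, 1489 to 30785 in CMP:MA9 and 1242 to 14420 in GMP:MA9, against at most 864 in MPP, at most 247 in CMP and 1705 to 11354 in GMP. ST-HSC samples spanned 49.7 to 40786. Of the 8 markers 6 were higher than in the normal cell in STHSC:MA9, 8 in MPP:MA9, 7 in CMP:MA9 and 2 in GMP:MA9. Of all genes, 12.3%, 13.5% and 13% were higher in STHSC:MA9, MPP:MA9 and CMP:MA9. In GMP:MA9 22.4% of all genes were called in either direction, with 8.87% of all genes lower and the rest of the called genes higher. The part of the granulocyte markers in the levels of the 7 genes was not tested.

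Each leukaemia was set against its cell of origin to ask which of these genes the leukaemia keeps. In STHSC:MA9 all 7 were lower than in ST-HSC, where 11.9% of genes were lower. Car2 fell by 7.04 ± 0.61 (SE, adjusted p = 7.23e-12), from 298 to 420.0 FPKM to 2.19, 1.74 and 1.11. The changes were -5.77 ± 0.71 for Car1, -4.21 ± 0.42 for Aqp1, -3.60 ± 0.49 for Ermap and -2.66 ± 0.50 for Rhag. Rhd was at the threshold (-1.41 ± 0.60, adjusted p = 0.0487), its call was lost without any 1 STHSC:MA9 replicate or without ST-HSC replicate 2, 4 or 5 (0.0653 to 0.182), with a pseudocount of 0.1 (0.0839), with no filter (0.0799) and with only these groups fitted (0.142), and without LT-HSC and ST-HSC replicates 4 and 5 it was at -0.59 ± 0.59 (0.433). Tfrc (-1.5 ± 0.38, 0.00127) was no call without STHSC:MA9 replicate 1 (-0.99, short of the fold threshold).

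In CMP:MA9 all 7 were lower than in CMP, where 14.8% of genes were lower. Car1 fell by 9.37 ± 0.65 (SE, adjusted p = 1.67e-14), to 0, 0.08, 0 and 0 FPKM in replicates 1 to 4. Car2 changed by -8.28 ± 0.56 (to 0.05, 0.28, 0 and 0 FPKM), Ermap by -5.64 ± 0.45 and Aqp1 by -5.37 ± 0.39. Rhag was listed at 0 in all 4 CMP:MA9 samples and at 4.84 to 53.7 FPKM in CMP. Rhd fell by 2.67 ± 0.55, from 3.54 to 47.2 FPKM to 0.17 to 1.75. The 7 calls held without any 1 of the CMP or CMP:MA9 replicates.

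MPP and GMP started from lower levels. In MPP:MA9 5 of 7 were lower than in MPP, where 13.6% of genes were lower: Car2 (-6.44 ± 0.48, SE), Car1 (-4.29 ± 0.56), Ermap (-1.98 ± 0.39), Aqp1 (-1.95 ± 0.33) and Tfrc (-1.72 ± 0.30). Rhag differed by -0.92 ± 0.40 (adjusted p = 0.0427), short of the fold threshold, and was a call without MPP replicate 3, 5 or 6 or MPP:MA9 replicate 6 (-1.03 to -1.13) and at -2.11 with a pseudocount of 0.1. In GMP:MA9 3 of 7 were lower than in GMP, where 8.87% of genes were lower: Car1 (-2.46 ± 0.58), Car2 (-2.25 ± 0.51) and Tfrc (-1.82 ± 0.32). Ermap, Rhag, Rhd and Aqp1, all below 1.1 FPKM in GMP, differed by -0.48 to 0.29, and Ermap was a call only with a pseudocount of 0.1 (-1.83, adjusted p = 0.00983). Car1, Car2 and Tfrc were thus lower in all 4 comparisons, as were 3.17% of all genes.

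**Figure D5:**
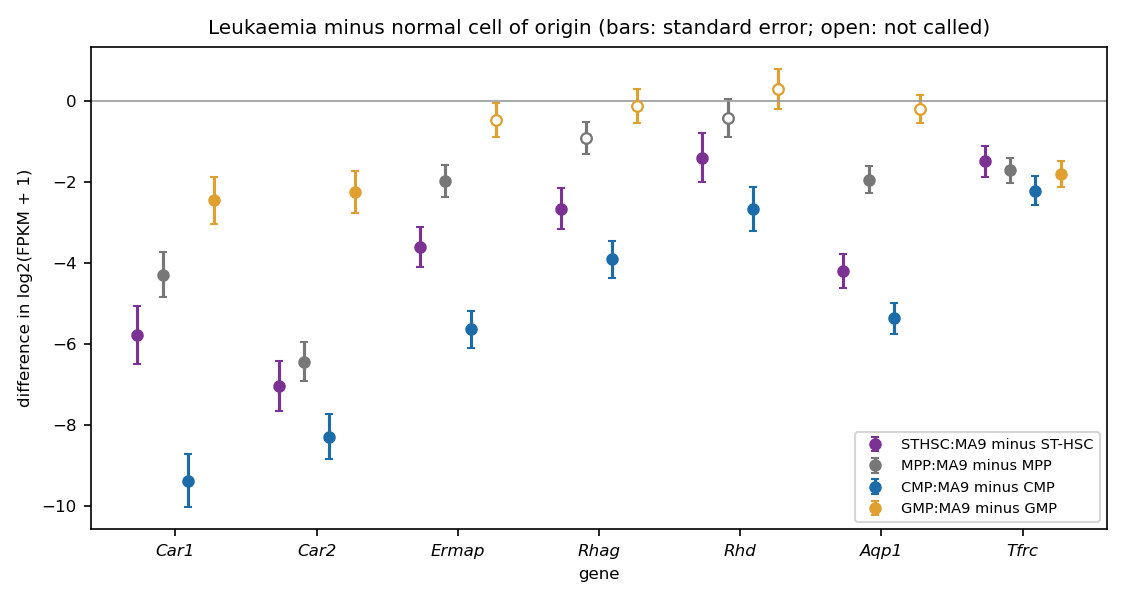
Difference in log2(FPKM + 1) between each leukaemia and its normal cell of origin for the 7 genes (points, with standard errors), with open points where the gene was not called. CMP:MA9 shows the deepest fall for every gene, and Tfrc is the gene whose 4 differences lie closest together (-1.5 to -2.22).

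The size of the change depended on the origin for 6 of the 7 genes, by an F test over the 4 changes, which 38% of all genes passed. The adjusted p was 2.28e-09 for Aqp1, 1.79e-07 for Ermap, 3.13e-07 for Car2, 8.71e-07 for Car1, 2.99e-05 for Rhag and 0.00874 for Rhd. In each of the 6 the changes ranked as the mean FPKM of the normal cells do, from CMP through ST-HSC and MPP to GMP. For Car2 the medians did not follow this order, at 294 FPKM in CMP and 353 in ST-HSC. The medians of these 6 genes over the 19 leukaemias were 0 to 0.55 FPKM, and the test does not separate differences between leukaemias from those between normal cells. Without LT-HSC and ST-HSC replicates 4 and 5 the same 6 genes passed, with adjusted p from 6.13e-09 for Aqp1 to 0.00343 for Rhd. For Tfrc the F test gave an adjusted p of 0.632. Between leukaemias only Car2 and Tfrc were high enough to be tested, and limma called neither in any of the 6 pairs (12 tests, 0 with an unadjusted p under 0.05), in which 4.82% of all genes were called at least once. The largest of these differences in Tfrc was 0.63 ± 0.33 (SE, adjusted p = 0.209), between GMP:MA9 and MPP:MA9. Car1, too low on average for the fit of the leukaemias, was at 1.37 to 2.44 FPKM in STHSC:MA9 and 0 to 2.32 in MPP:MA9. It was at 0 to 0.08 FPKM in CMP:MA9 and 0 to 0.14 in GMP:MA9. With no filter on low values, a gene other than Car2 and Tfrc was called between leukaemias.

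The normal group means of Tfrc were 114 FPKM in MEP, 52.4 in LT-HSC, 50.7 in GMP, 48.9 in CMP, 40.2 in ST-HSC and 31.8 in MPP, and all neighbours below MEP overlapped. Without LT-HSC and ST-HSC replicates 4 and 5 the LT-HSC mean lay below GMP and CMP, at 35.1 ± 9.55 FPKM (SD, n = 3). The lowest MEP sample (95.3) lay just above LT-HSC replicate 4 (94.3), a library with haemoglobin RNA. Leukaemia samples (5.50 to 22.8 FPKM) overlapped the normal samples (22.1 to 147) only through STHSC:MA9 replicate 2. Summed over 9 genes of dividing cells, the leukaemias held 321 to 914 FPKM against 721 to 1202 in ST-HSC, MPP, CMP and GMP, ranges that overlap. The part of this sum in the Tfrc level was not tested.

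Other genes of the same families and pathways came from lists of known members. Of 16 carbonic anhydrases 6 were high enough to test, and in MEP against CMP only Car1 and Car2 rose while Car9 (-1.32) and Car12 (-1.65) fell, as did 9.49% of all genes. In each of the 4 leukaemias 4 of the 6 were lower, namely Car1, Car2, Car3 and Car13. Of all genes, 11.9% were lower in STHSC:MA9, 13.6% in MPP:MA9, 14.8% in CMP:MA9 and 8.87% in GMP:MA9. Car9, a membrane enzyme known as a hypoxia target, kept 1.84 ± 0.797 FPKM in MEP to 7.26 ± 1.68 in GMP. Of 11 aquaporins 3 were tested: Aqp9 and Aqp11 were above GMP in MEP along with Aqp1 (by 4.42 and 2.55), as were 9.33% of all genes. Their MEP means were 34.3 ± 5.26 and 11.7 ± 2.31 FPKM. Rhcg, the other Rh family gene found, had means of at most 0.524 FPKM and was not tested.

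Of 22 genes of the red cell membrane and its skeleton 21 were tested. In MEP against GMP 16 rose, as did 9.33% of all genes, and 1, the glucose transporter gene Slc2a1, fell, as did 11.2%. The median change was 2.22 where the median over all genes was 0.06. In MEP against CMP 7 rose and 1 fell (median 0.94, all genes -0.14), as did 2.34% and 9.49% of all genes. From MPP to CMP 6 rose (median 0.94, all genes 0.03), as did 1.49% of all genes. Without LT-HSC and ST-HSC replicates 4 and 5, 10 of 18 were called from MPP to CMP. Of the 3 most abundant, Cd47 was at 167 to 231 FPKM by group mean in normal cells, lowest in LT-HSC, and at 310.0 to 385 in leukaemias. Add1 had the order of means of Car1, from 90.4 in MEP to 31.2 in GMP, and Epb41 was highest in LT-HSC (104, with samples from 39.1 to 243) and lowest in GMP (25.3). In CMP:MA9 against CMP 14 of 19 fell (median -2.05, all genes -0.16), and in GMP:MA9 against GMP 3 of 19 (median -0.15, all genes 0). Of all genes 14.8% and 8.87% fell.

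Of 15 genes of iron uptake and storage 14 were tested. In MEP against CMP 6 rose, among them Tfrc and Tfr2, the second transferrin receptor gene (1.09), and 2 fell, Hfe and Ncoa4. Of all genes 2.34% rose and 9.49% fell. Tfr2, like Tfrc, was lower in all 4 leukaemias, at -3.89 in STHSC:MA9, -3.88 in MPP:MA9, -4.41 in CMP:MA9 and -1.62 in GMP:MA9. Ftl1, the ferritin light chain gene, was higher in STHSC:MA9 (1.64), MPP:MA9 (1.88) and CMP:MA9 (1.56), where 12.3%, 13.5% and 13% of all genes were higher, while the heavy chain gene Fth1 was no call in any leukaemia (-0.13 to 0.47).

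Of 10 haemoglobin and late red cell genes 9 were found and 7 tested. These 7 had a median change of -1.99 from ST-HSC to MPP (-0.10 without LT-HSC and ST-HSC replicates 4 and 5) and of 1.60 from CMP to MEP, in groups whose samples differed widely. None of the 7 was called in either comparison. In STHSC:MA9, where 11.9% of all genes were lower, 6 of 7 were lower (median -4.23), but 2 of 6 without those libraries (-2.44). In CMP:MA9 5 of 7 were lower and 1 higher (-3.59), as were 14.8% and 13% of all genes. In MPP:MA9 1 was lower and 1 higher, as were 13.6% and 13.5% of all genes. Hbb-b1, an adult beta-globin gene, averaged 976 ± 610.0 FPKM (SD, n = 4) in MEP and 13914 ± 19822 (n = 5) in LT-HSC. In MEP against GMP, where 9.33% of all genes rose, Hba-a1, Hba-a2 and Trim58 rose (median of the 7 genes 3.06). Without those libraries 6 of 7 were called. The adult globin genes are near copies of each other, and the sharing of reads between them is uncertain.

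Of 11 erythroid regulators 10 were higher in MEP than GMP, as were 9.33% of all genes. In MEP against CMP, where 2.34% of all genes were higher, 4 were: Gata1 (1.28), Klf1 (2.08), Gfi1b (1.59) and Epor (1.88), the erythropoietin receptor gene. Klf1 (-1.54) and Epor (-1.04) fell from LT-HSC to ST-HSC and rose from MPP to CMP (by 3.01 and 2.75), as Car1, Ermap, Rhd and Aqp1 did, and both fell without LT-HSC and ST-HSC replicates 4 and 5 as well (-2.34 and -1.41). Gata1 differed from LT-HSC to ST-HSC by -0.17 (adjusted p = 0.825). The 3 most abundant regulators were Lmo2, Ldb1 and Nfe2, and Lmo2 kept 156 to 232 FPKM by group mean in the leukaemias. In the leukaemias 9 regulators were lower in STHSC:MA9, 8 in MPP:MA9, 9 in CMP:MA9 and 2 in GMP:MA9. The shares of all genes that were lower were 11.9%, 13.6%, 14.8% and 8.87%.

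Across the 30 normal samples each gene was compared with 12367 others by Pearson's r on log2(FPKM + 1), as a description only, since the samples share their groups and libraries. The genes most like Car1 were Ces2g (0.981), Trib2 (0.979) and Aqp1 (0.977), and those most like Aqp1 were Ces2g (0.987), Ermap (0.986) and Epor (0.986). Ermap was closest to Aqp1 (0.986), Blvrb (0.986) and Ces2g (0.984). Rhag was closest to Tspan33 (0.983), Ank1 (0.981) and Rhd (0.980), and Rhd to Rhag (0.980), Fam55b (0.977) and Kel (0.970). Car2 had another set, Aqp9 (0.976), Gfi1b (0.974) and Tal1 (0.970). Tfrc had weaker partners, Abcb10 (0.911), Fam55d (0.887) and Pnp2 (0.881), and its r with the other 6 genes was 0.259 to 0.674. Without LT-HSC and ST-HSC replicates 4 and 5 (26 samples) all 3 of these genes stayed for Car1, 2 for Ermap and for Aqp1, 1 for Car2, Rhag and Rhd and 0 for Tfrc.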

How the data were processed

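RNA sequencing of 49 samples was analysed. The authors deposited FPKM values with 2 decimals, made with RSEM and the mm9 build per the submitters' processing notes, from amplified cDNA of sorted cells. Aligner and annotation are not given in the sources used here. Of 68 columns, 19 matched no sample label and were not used. Positions and symbols came from GENCODE M1 for NCBIM37 and the gene name table (33068 rows with a symbol).

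The FPKM were compared as log2(FPKM + 1) with limma 3.58.1 in R 4.3.3 (trend, two-sided, Benjamini-Hochberg over every gene averaging 1 FPKM or more in the fit). Calls needed an adjusted p below 0.05 and a change above 1. The 30 normal samples shared 1 fit, the 4 leukaemias with their 4 normal cells another, and the 19 leukaemias the last. The study tested counts with another tool. No counts were used here. The fit was tested on simulated data. Python 3.11.15 (numpy 2.4.6, pandas 2.3.3) made the tables and matplotlib 3.10.9 the plots.

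The 7 genes and the gene lists were chosen with earlier results of these data known. Besides the 7, the text names from each list the 3 genes with the highest mean FPKM and, for each of the 7, the 3 genes with the highest r. Other list genes were named after their values were seen. Of the marker lists (megakaryocyte, granulocyte, granulocyte-macrophage progenitor, macrophage, endothelial, lymphocyte, mast cell, stem cell, sort markers, dividing cells) summed FPKM were taken.

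Groups and replicate numbers came from the labels. Samples stand for individual mice, which the labels do not tie to experiments, so that p-values measure the spread between these samples. Same-numbered ST-HSC and LT-HSC samples deviated together from their group means (r 0.142 to 0.682 over 5 pairs), which counts as pairing, and the block changed no call of the 7 genes there. In the other comparisons the numbers were not taken to pair the samples. There r was positive but low in every pair of GMP and CMP (0.0469 to 0.294) and of CMP:MA9 and CMP (0.0461 to 0.104). Alternatives were a pseudocount of 0.1, no filter, median-ratio scaling, only the groups compared, the replicate block, no fold threshold, removal of GC content and length trends with and without the block, and each replicate left out. Leaving out LT-HSC and ST-HSC replicates 4 and 5 was added after seeing the data.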

Additional observations from a re-analysis of the deposited data

Results flagged for a closer look

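A sample stood far from the others of its group (Dixon's ratio on log2 values) in 4 of the 62 groups of 4 to 10 samples examined over the 7 genes, and chance flags about 1 in 20. Ermap was at 237.76 FPKM in MEP replicate 1, the other 3 MEP samples lying within 203.51 to 206.17. The rest are values near 0: Car1 at 0.08 FPKM in CMP:MA9 replicate 2 and at 0.14 FPKM in GMP:MA9 replicate 5, where every other sample of these groups was listed at 0, and Ermap at 0.76 FPKM in GMP:MA9 replicate 5. For both Car1 groups the ratio takes its highest value whatever the level of that sample, so that the chance rate does not apply to them.

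How far a gene changed between normal and leukaemia cells depended on the cell of origin for 6 of the 7, with these adjusted p-values from limma's F test: Car1 (8.71e-07), Car2 (3.13e-07), Ermap (1.79e-07), Rhag (2.99e-05), Rhd (0.00874) and Aqp1 (2.28e-09). The differences in log2(FPKM + 1) ran from -2.46 in GMP:MA9 to -9.37 in CMP:MA9 for Car1, and from 0.29 to -2.67 for Rhd. The changes ranked as the mean FPKM of the normal cells do, though the Car2 median was lower in CMP (294 FPKM) than in ST-HSC (353). The medians of these 6 genes over the 19 leukaemias were 0 to 0.55 FPKM. The F test does not separate a difference between the leukaemias from one between the normal cells.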

How the results depend on the processing

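Counts of called genes among the 7 stayed within 1.5 times under the alternatives run, with these exceptions. From ST-HSC to MPP the count of 4 became 2 with no filter and 1 with the replicate block, with the block and GC content and length trends removed, or without LT-HSC and ST-HSC replicates 4 and 5, and it ranged from 1 to 5 with single replicates left out. The numbers did not pair those samples (r from -0.106 to 0.0459). From LT-HSC to ST-HSC it became 2 with only those groups fitted, and with trends removed and the block Rhag was a call (adjusted p = 0.0468). Between leukaemias it became 1 in place of 0 with no filter. That gene was neither Car2 nor Tfrc, and so was among those too low for the filtered fit. With median-ratio scaling the median change of all genes shifted by -0.14 to 0.22, Car2 was a call from ST-HSC to MPP (-1.02, adjusted p = 0.0326), and none of 70 group means moved by more than 1 SD. Signs turned only for small differences. Rhag in GMP:MA9 against GMP became 0.04 with trends removed and 0.05 with the block added. Tfrc in GMP:MA9 against STHSC:MA9 became -0.01 with the block, -0.09 with the block and trends removed and, with single replicates left out, -0.38 to 0.55. In the same way it ranged from -0.90 to 0.03 in CMP:MA9 against STHSC:MA9 and from -0.25 to 0.32 in CMP:MA9 against MPP:MA9, and Car2 from -0.36 to 0.16 in GMP:MA9 against MPP:MA9. From ST-HSC to MPP Tfrc became 0.06 without LT-HSC and ST-HSC replicates 4 and 5. The cause was not tested. The block lost Rhd in STHSC:MA9 against ST-HSC (-1.19, adjusted p = 0.109). Over all genes, the calls from LT-HSC to ST-HSC numbered 40 in place of 280 with only those groups fitted and 552 without LT-HSC and ST-HSC replicates 4 and 5, and those in any pair of leukaemias 183 and 116 in place of 584 with trends removed, without and with the block. With no fold threshold they numbered, in place of the counts in brackets, 1137 (280), 2341 (425), 1791 (534), 4541 (1391), 3903 (1464) and 5774 (2537) in the normal comparisons, in the order ST-HSC against LT-HSC, MPP against ST-HSC, CMP against MPP, GMP against CMP, MEP against CMP and MEP against GMP. Likewise they numbered 6101 (3045) in STHSC:MA9, 7871 (3412) in MPP:MA9, 7538 (3508) in CMP:MA9, 7359 (2820) in GMP:MA9 and 2640 (584) in any pair of leukaemias. With all 49 samples in place of the 30 normal, at most 1 of the 3 genes most like each of Car1, Car2, Ermap, Rhag, Rhd and Tfrc was shared. Low FPKM near 0 limit the differences of Ermap, Rhag, Rhd and Aqp1 in leukaemias.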

Other observations

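The other marker lists gave the following summed levels. Macrophage markers (7 genes) held 39.2 to 119 FPKM in the leukaemias and 0.74 to 23.8 in the normal samples. Endothelial markers (5 genes) held 6.59 to 9.22 FPKM in MEP and 16.2 to 87.1 elsewhere. Lymphocyte markers (7 genes) held 10.3 to 98.2 FPKM in MEP, 21.3 to 142 in LT-HSC and 14.9 to 87.2 in the other normal groups. Mast cell and basophil markers (5 genes) held 2.65 to 5.48 FPKM in MEP and 36 to 79.5 in CMP. Stem cell markers (6 genes) held 133 to 507 FPKM in LT-HSC, 142 to 265 in ST-HSC and up to 387 in MPP, and at most 47.7 in CMP, GMP and MEP. Granulocyte markers (8 genes) held 45.6 to 3300.0 FPKM in MEP, highest in replicate 4, where Car1 was the highest MEP value (3048 FPKM) and Car2 the lowest (1354 FPKM). The sort markers (6 genes) summed to 92.8 to 112 FPKM in MEP and 424 to 517 in MPP.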
